A study of Mus musculus with 18 samples.

Results

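The 39 clustered Hox genes were described in hindlimb muscle taken at 3 ages, 2, 20 or 28 months (2-m, 20-m and 28-m muscle), from female mice of the strain C57BL/6J. They were chosen by symbol alone, as every gene named Hoxa, Hoxb, Hoxc or Hoxd followed by a number, out of 23420 genes in the RNA-seq table. The 11 Hoxa genes lie on chromosome 6, the 10 Hoxb genes on chromosome 11, the 9 Hoxc genes on chromosome 15 and the 9 Hoxd genes on chromosome 2. Poly-A RNA of 3 mice per age was sequenced without pooling, which gave 9 libraries, and the labels name no treatment or transgene. The muscles of the hindlimb were not separated by name in the sources used here. Methylated DNA captured by a methyl-CpG-binding domain (MBD-seq) was also measured, with the DNA of 3 mice pooled per age.

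Hox genes encode homeodomain transcription factors that give cells their position along the body axis and, for the genes at the 5′ end of the clusters, along the limb. Within each cluster the genes stand in the order in which they are used, so that genes with low paralog numbers at the 3′ end act early and toward the head and those with high numbers act late and toward the tail or the tip of the limb. Genes with the same number in different clusters, the paralogs, are copies that arose when an ancestral cluster was duplicated. Hox proteins bind DNA together with the TALE homeodomain proteins of the Pbx, Meis and Pknox families, and their on or off state is kept through cell division by Polycomb and trithorax proteins. Adult muscle fibres, satellite cells and the connective tissue cells of a limb are known to keep a Hox pattern that reflects where in the body they formed.

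The values were normalized counts, that is, reads per gene divided by the size factor of each library. Between 20203833 and 71115244 reads fell on genes per library. The muscle label held in every library, since Acta1, the actin of skeletal muscle fibres, ranged from 1006620 to 1406640 and Ckm, muscle creatine kinase, from 516150 to 732934. The 3 libraries numbered 3 stood apart from the other 6, because their normalized counts on genes summed to between 38131600 and 39602600 against 47840600 to 52950500. A library of 2-m muscle, number 1, also stood apart, with a summed level of bone and cartilage markers of 2193 against 35.4 to 201 in the other 8 libraries. The Hox calls are given with and without these libraries below, while levels, sums and marker lists are given over all 9. In bulk tissue, fewer cells of a type and less RNA per cell cannot be told apart.

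Hox RNA in muscle came mostly from the middle and the 5′ part of the clusters. Levels were compared between genes as normalized count per kb of exon, since longer transcripts give more reads. The 16 genes of paralog groups 9 to 13 held 76.4%, 73.1% and 71.4% of the summed Hox level at 2, 20 and 28 months. The 8 genes of paralog groups 1 to 3 held between 1.48% and 1.92%. The plot of levels by cluster and paralog number shows a peak at Hoxc10 and further high boxes at Hoxa10, Hoxc9, Hoxd8 and Hoxd9. The boxes at numbers 1, 12 and 13 are low or empty except Hoxa13, with 33.1, 91.4 and 70.7 per kb at 2, 20 and 28 months.

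**Figure D1:**
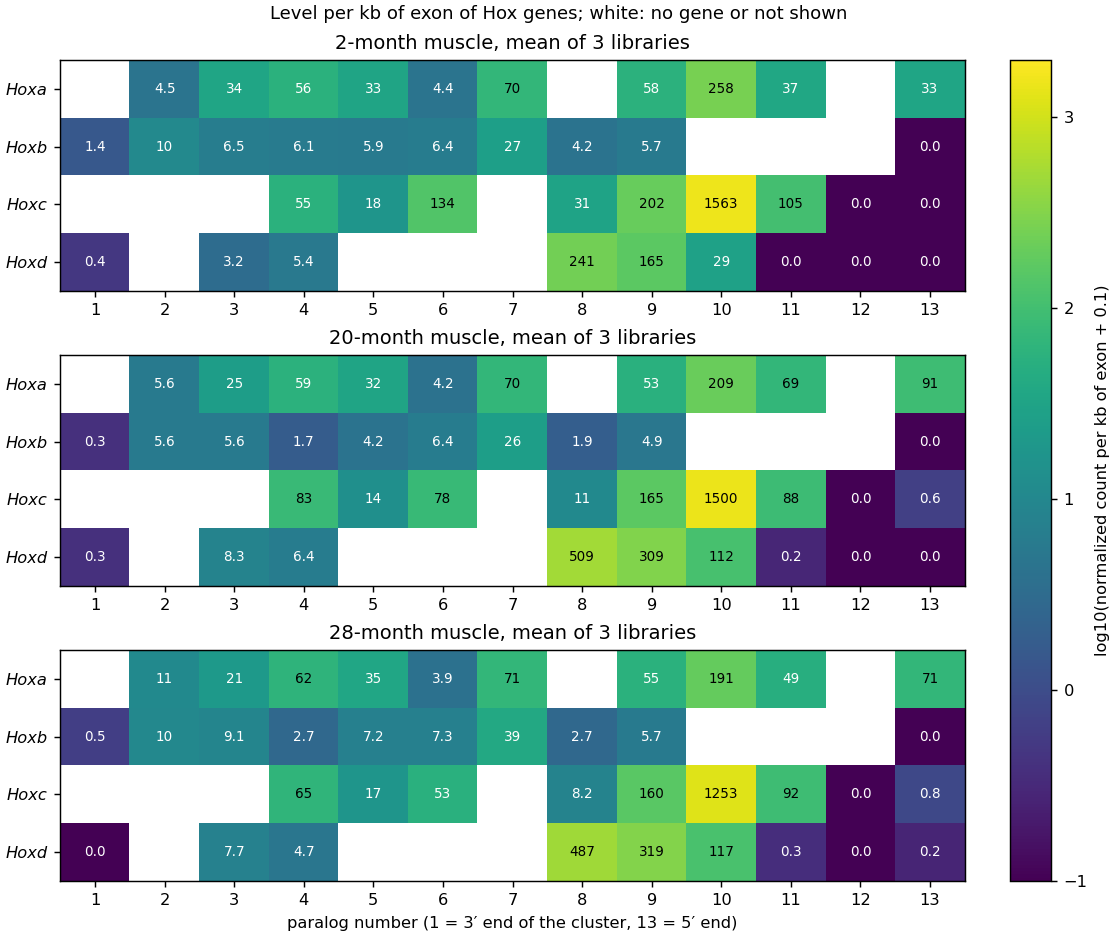
Mean level of the Hox genes in 2-m, 20-m and 28-m muscle (3 libraries each), with clusters in rows, paralog numbers in columns and the number in each box giving the normalized count per kb of exon; the color is on a log10 scale, and white boxes hold no gene or a gene not shown. Hoxc10 is the highest box at each age, and the Hoxd8, Hoxd9 and Hoxd10 boxes are higher at 20 and 28 months than at 2 months.

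Hoxc10, a gene known from the hindlimb and the lumbar and sacral trunk, had the highest level of the 39 genes at each age, with 1563, 1500 and 1253 normalized counts per kb from the youngest age to the oldest. It alone made 48.6%, 42.1% and 38.7% of the summed Hox level at those ages. Averaged over the 9 libraries it stood at percentile 94.6 of the 21533 genes with a known exon length. On the same average, Hoxd8 followed at percentile 84.2, Hoxd9 at 78.8, Hoxa10 at 76.3 and Hoxc9 at 73.4. At 2 months alone the order differed, with Hoxa10 at 258 normalized counts per kb, Hoxd8 at 241, Hoxc9 at 202 and Hoxd9 at 165. The highest of the Hoxb genes, Hoxb7, stood at percentile 54.9.

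Of the 39 genes, 26 had a mean normalized count of at least 10 over the 9 libraries and were tested. The other 13 were spread over the 4 clusters, with Hoxb4, Hoxb6 and Hoxb8 in the middle of the Hoxb cluster and Hoxc13, Hoxd11 and Hoxd13 at the 5′ end among them. Hoxb13, Hoxc12 and Hoxd12 had no read in any library, a result that allows up to 3 reads per library, or 1.63 to 6.69 normalized counts depending on depth (counting error only). The other 10 had means from 0.153 to 9.49. The most distal Hoxd genes were thus at or near the limit of detection, with 4 reads for Hoxd11 and 1 read for Hoxd13 over all 9 libraries, while Hoxd8, Hoxd9 and Hoxd10 on the same chromosome had 6076, 3696 and 1076 reads. Exons of 7 members overlapped those of another gene, and the library kit did not mark strand.

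Ages were compared with limma on log2(normalized count + 1) in a single fit of the 9 libraries, with p-values adjusted over all 13178 genes tested by the Benjamini-Hochberg method. Between 20-m and 2-m muscle, 5 Hox genes were higher and 0 were lower at an adjusted p under 0.05, which is 19.2% of the 26 tested against 16.6% of all genes (9.42% higher, 7.13% lower). DESeq2 and edgeR called 7 Hox genes each (19.4% and 16.7% of all genes), of which 5 were higher and 2, Hoxc6 and Hoxc8, were lower. With limma, 10 of 26 had an unadjusted p under 0.05 against 31.5% of all genes. Between 28-m and 2-m muscle, 4 Hox genes were higher and 4 were lower, 30.8% of those tested against 13.8% of all genes (7.53% higher, 6.24% lower). Between 28-m and 20-m muscle, 0 Hox genes passed the test with limma, edgeR or DESeq2, where 0.379%, 0.387% and 1.73% of all genes passed. With limma, 1 Hox gene, Hoxc10, had an unadjusted p under 0.05 (10.6% of all genes). With the mean of the 20-m and 28-m groups against 2-m muscle, 5 Hox genes were higher (Hoxa11, Hoxa13, Hoxd8, Hoxd9 and Hoxd10) and 3 lower (Hoxa10, Hoxc6 and Hoxc8), 30.8% of those tested against 20.1% of all genes (11.2% higher, 8.92% lower). The comparisons with 2-m muscle share the same 3 libraries at 2 months.

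Counted without a test, 6 Hox genes had all 3 libraries at 20 months above, and 2 below, those at 2 months, where 18.4% and 17.6% of all genes did so. At 28 months 4 were above and 5 below the 2-m libraries (15.3% and 15% of all genes). Between 28 and 20 months 1 was above and 5 were below (8.63% and 8.84%). All 6 later libraries were above those at 2 months for 4 Hox genes and below for 2 (10.5% and 9.6%).

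In 20-m against 2-m muscle, the 5 higher genes were Hoxd8, Hoxd9 and Hoxd10 of the Hoxd cluster and Hoxa11 and Hoxa13 of the Hoxa cluster. In 28-m against 2-m muscle, Hoxd8, Hoxd9, Hoxd10 and Hoxa13 were higher, and Hoxc6, Hoxc8, Hoxc10 and Hoxa10 were lower. For the 5 tested Hoxd genes the median log2 fold changes were 1.07 and 0.97 at the 2 later ages, and for the 7 tested Hoxc genes they were -0.28 and -0.31. The 9 tested Hoxa genes had medians of 0.08 and 0.10 and the 5 tested Hoxb genes -0.10 and 0.27, beside -0.02 and -0.01 over all genes. No Hoxb gene passed the limma test, and 0 of the 5 had an unadjusted p under 0.05 in any comparison. With only libraries 1 and 2 of each age, Hoxd8, Hoxd9 and Hoxd10 were the Hox genes past the test at either later age, where 8.49% of all genes passed at 20 months and 5.44% at 28 months. Without library 1 at 2 months, 4 Hox genes passed at 20 months (Hoxa13, Hoxd8, Hoxd9 and Hoxd10), where 10.8% of all genes passed, and 4 at 28 months (Hoxc6, Hoxd8, Hoxd9 and Hoxd10), where 8.54% passed.

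**Figure D2:**
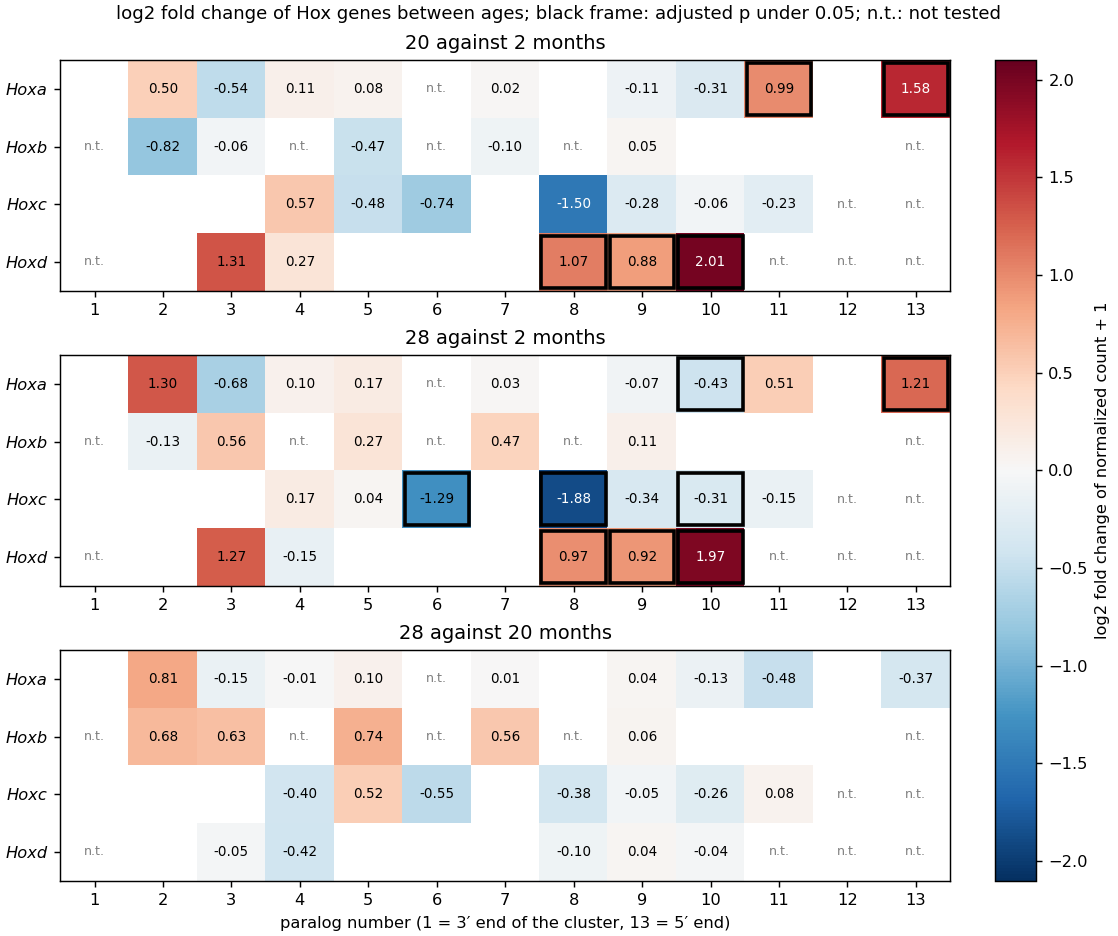
log2 fold change of the 26 tested Hox genes in 20-m against 2-m, 28-m against 2-m and 28-m against 20-m muscle, with clusters in rows and paralog numbers in columns; red is higher and blue is lower at the later age, a black frame marks an adjusted p under 0.05, and n.t. marks genes not tested (white boxes hold no gene or a gene not shown). The framed red boxes lie in the Hoxd row at numbers 8, 9 and 10 and in the Hoxa row at numbers 11 and 13, and the framed blue boxes in the Hoxc row at 6, 8 and 10 and at Hoxa10.

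By paralog number, the tested genes of groups 1 to 3 had 0 calls with limma in any comparison, and 1 of these 5 genes had an unadjusted p under 0.05 at 20 months and 0 at 28 months. Of the 11 tested genes of groups 4 to 8, 1 was higher at 20 months, and 1 was higher and 2 were lower at 28 months. Of the 10 tested genes of groups 9 to 13, 4 were higher at 20 months, and 3 were higher and 2 lower at 28 months. Over all genes, 9.42% were higher at 20 months, and 7.53% were higher and 6.24% lower at 28 months. Paralogs with the same number did not all move together. In group 8, Hoxd8 was higher while Hoxc8 had a log2 fold change of -1.50 at 20 months and -1.88 at 28 months. In group 10, Hoxd10 was higher at 28 months while Hoxa10 and Hoxc10 were lower. Paralog group 10 held 57.6% of the summed Hox level at 2 months and 51.1% at 20 months, and group 8 held 8.59% and 14.6%.

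Hoxd8, Hoxd9 and Hoxd10 are neighbors on chromosome 2, with Hoxd10 at chr2:74691891-74695106, Hoxd9 at chr2:74697763-74700208 and Hoxd8 at chr2:74704615-74707933 (GRCm38, plus strand). They belong to the part of the cluster that is known to pattern the upper limb segments and the lumbar motor neurons. Their 250 bases before the start site, and those of Hoxa13, are shown because these 4 genes were higher than in 2-m muscle at both later ages. The sequences are from RefSeq (GRCm38.p6), and the capitals mark CpG dinucleotides, the bases that MBD capture reads when methylated.
Hoxd8, chr2:74704365-74704614, plus strand: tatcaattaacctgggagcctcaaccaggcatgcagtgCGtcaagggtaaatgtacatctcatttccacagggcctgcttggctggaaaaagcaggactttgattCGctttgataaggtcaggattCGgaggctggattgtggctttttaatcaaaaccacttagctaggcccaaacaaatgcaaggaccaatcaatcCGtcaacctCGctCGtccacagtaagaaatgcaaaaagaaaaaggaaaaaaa
Hoxd9, chr2:74697513-74697762, plus strand: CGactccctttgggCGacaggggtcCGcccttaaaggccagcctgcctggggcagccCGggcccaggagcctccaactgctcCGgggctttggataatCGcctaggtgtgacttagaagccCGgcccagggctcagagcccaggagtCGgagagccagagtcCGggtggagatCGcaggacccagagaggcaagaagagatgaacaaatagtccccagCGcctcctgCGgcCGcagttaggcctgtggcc
Hoxd10, chr2:74691641-74691890, plus strand: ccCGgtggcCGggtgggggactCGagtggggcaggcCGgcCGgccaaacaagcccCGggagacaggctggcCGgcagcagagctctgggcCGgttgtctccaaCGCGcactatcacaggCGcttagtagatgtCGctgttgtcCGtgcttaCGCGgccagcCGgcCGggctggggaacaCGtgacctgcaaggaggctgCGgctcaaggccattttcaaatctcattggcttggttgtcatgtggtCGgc
Hoxa13, chr6:52260881-52261130, minus strand: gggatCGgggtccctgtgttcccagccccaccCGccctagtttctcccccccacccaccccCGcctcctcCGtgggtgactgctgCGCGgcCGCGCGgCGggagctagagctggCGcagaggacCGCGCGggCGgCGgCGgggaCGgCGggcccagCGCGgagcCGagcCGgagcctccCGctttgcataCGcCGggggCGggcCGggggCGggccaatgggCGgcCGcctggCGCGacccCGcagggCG

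The 4 stretches differed widely in CpG content, with 6 CpG at Hoxd8, 13 at Hoxd9, 20 at Hoxd10 and 35 at Hoxa13, against a median of 6 over 32851 promoters and 12.5 over the 24 promoters found for 22 of the 39 Hox genes. Their GC content ran from 44.4% at Hoxd8 to 80.0% at Hoxa13. The same 250 bases of every promoter were searched on both strands for 5 short motifs. The letters TGATNNAT, bound by Hox and Pbx proteins together, stood in 7.68% of all promoters and in 4 of the 24 Hox promoters. The letters TGACAG, bound by Meis and Pknox proteins, stood in 15.9% of all promoters and in 2 of the Hox promoters. The Cdx letters TTTATG stood in 10.8% of all promoters and in 5 of the Hox promoters. A TATA box with the letters TATAAA stood in 12.4% of all promoters and in 4 of the Hox promoters. An E-box of myogenic factors, CAGCTG, stood in 13% of all promoters and in 3 of the Hox promoters. None of the 5 motifs stood in the 4 stretches printed above.

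Hoxd10 showed the largest difference of the 26 genes. Its normalized counts were 60.2, 28.2 and 73.6 among the 2-m libraries, 211.1, 244.7 and 166.2 among the 20-m libraries, and 343.5, 122.9 and 185.0 among the 28-m libraries. All 6 libraries of the later ages were above the 3 libraries at 2 months, and the 28-m libraries spread over a wider range than those at 20 months. The mean was 3.84 times that of 2-m muscle at 20 months (log2 fold change 2.01 ± 0.38 SE, limma adjusted p = 0.00421, n = 3 per age) and 4.02 times at 28 months (1.97 ± 0.38, limma adjusted p = 0.00534).

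Hoxd8 was the most abundant of the genes that rose. Its normalized counts were 517.1, 451.1 and 590.5 among the 2-m libraries, 1308, 1119 and 872.3 among the 20-m libraries, and 1395, 716.8 and 1042 among the 28-m libraries. The later libraries lay above every 2-m library, and the lowest of them was a 28-m library. On the log2 scale the difference from 2-m muscle was 1.07 ± 0.21 at 20 months (limma adjusted p = 0.00493) and 0.97 ± 0.21 at 28 months (limma adjusted p = 0.00946). An exon of another gene on the opposite strand covered 3.94% of its exon length.

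Hoxd9 moved by a similar amount. Its normalized counts were 403.4, 301.3 and 337.9 among the 2-m libraries, 721.1, 745.8 and 481.6 among the 20-m libraries, and 863.4, 530.3 and 613.4 among the 28-m libraries. The groups at 20 and 28 months overlapped each other and neither overlapped 2-m muscle. Relative to 2-m muscle, the log2 fold change was 0.88 ± 0.20 at 20 months (limma adjusted p = 0.0107) and 0.92 ± 0.20 at 28 months (limma adjusted p = 0.00970). The 20-m call was lost without library 1 or library 2 at 20 months, where the adjusted p reached 0.0558.

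The other tested Hoxd genes, Hoxd3 and Hoxd4, did not pass the test. Hoxd3 had mean normalized counts of 9.20 ± 5.82 (SD, n = 3), 24.0 ± 12.4 and 22.4 ± 8.63 at 2, 20 and 28 months. Its log2 fold change was 1.31 ± 0.60 SE at 20 months and 1.27 ± 0.60 at 28 months (limma adjusted p = 0.156 and 0.191). Hoxd4 had means of 13.9 ± 4.49, 16.4 ± 2.00 and 12.1 ± 2.07, with log2 fold changes of 0.27 ± 0.52 and -0.15 ± 0.52. Both lie on the 3′ side of Hoxd8, and their libraries overlapped between 2 months and each later age, while the 3 libraries of Hoxd4 at 28 months lay below those at 20 months. Hoxd1 was listed with 2 reads in all.

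Hoxa13 and Hoxa11 are the distal limb genes of the Hoxa cluster, Hoxa13 being known for the hand and foot and Hoxa11 for the forearm and lower leg. Hoxa13 had normalized counts of 26.8, 72.2 and 31.0 among the 2-m libraries, 123.3, 126.5 and 109.0 among the 20-m libraries, and 106.3, 78.7 and 92.5 among the 28-m libraries. Library 2 at 2 months came close to the lowest 28-m library, but no later library fell inside the 2-m range. Against 2-m muscle the log2 fold change was 1.58 ± 0.33 at 20 months (limma adjusted p = 0.00705) and 1.21 ± 0.33 at 28 months (limma adjusted p = 0.0299). The 28-m call was lost without library 1 or 3 at 2 months or without library 1 or 3 at 28 months, with an adjusted p of up to 0.109. It was also lost with edgeR, without the filter on low genes, after rescaling to the same sum and with only the libraries compared in the fit.

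Hoxa11 had normalized counts of 53.5, 130.4 and 70.0 among the 2-m libraries, 162.5, 178.9 and 135.1 among the 20-m libraries, and 121.4, 106.3 and 111.4 among the 28-m libraries. Its 28-m libraries lay within the range of the 2-m libraries. On the log2 scale the difference from 2-m muscle was 0.99 ± 0.28 at 20 months (limma adjusted p = 0.0319) and 0.51 ± 0.28 at 28 months (limma adjusted p = 0.264). The 20-m call was lost without library 1 or 3 at 2 months or without library 1 or 2 at 20 months, with an adjusted p of up to 0.111, and without the filter, after rescaling and with only the libraries compared in the fit. For the mean of both later ages the log2 fold change was 0.75 (limma adjusted p = 0.0470), a call lost in 8 of 9 fits with 1 library left out (each but library 2 at 2 months, adjusted p up to 0.221), with edgeR, without the filter and after rescaling. Of its exon length, 24.8% is shared with the antisense transcript Hoxa11os, so reads of the pair cannot be told apart there. Hoxa11os itself had mean normalized counts of 59.97, 90.2 and 95.4 at 2, 20 and 28 months and did not pass the test.

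Hoxa10, a gene of the upper leg and of the posterior trunk, was the most abundant Hoxa gene per kb. Its normalized counts were 811.3, 789.4 and 826.6 among the 2-m libraries, 622.1, 708.7 and 636.4 among the 20-m libraries, and 681.2, 549.7 and 571.9 among the 28-m libraries. Every later library lay below every 2-m library. Relative to 2-m muscle, the log2 fold change was -0.31 ± 0.11 at 20 months (limma adjusted p = 0.0711) and -0.43 ± 0.11 at 28 months (limma adjusted p = 0.0184). The 28-m call was lost without library 1 or 3 at 2 months or library 3 at 28 months (limma adjusted p up to 0.0663). It was also lost when the libraries were rescaled to the same sum (limma adjusted p = 0.496).

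The remaining Hoxa genes did not pass the test. Hoxa7, next in level per kb, had normalized counts of 129.3, 167.4 and 111.2 among the 2-m libraries, 138.2, 146.8 and 123.1 among the 20-m libraries, and 134.7, 172.6 and 109.5 among the 28-m libraries, and the ages overlapped over their full range. It differed from 2-m muscle by 0.02 ± 0.22 (20 months) and 0.03 ± 0.22 (28 months) on the log2 scale. Hoxa2, a gene of the head and neck end of the cluster, had the largest difference of the 26 genes between 28-m and 20-m muscle, 0.81 ± 0.71 (limma adjusted p = 0.743). It rested on few reads, with normalized counts of 4.46, 3.52 and 15.9 among the 2-m libraries, 9.34, 6.75 and 13.6 among the 20-m libraries, and 28.5, 19.3 and 9.44 among the 28-m libraries.

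**Figure D3:**
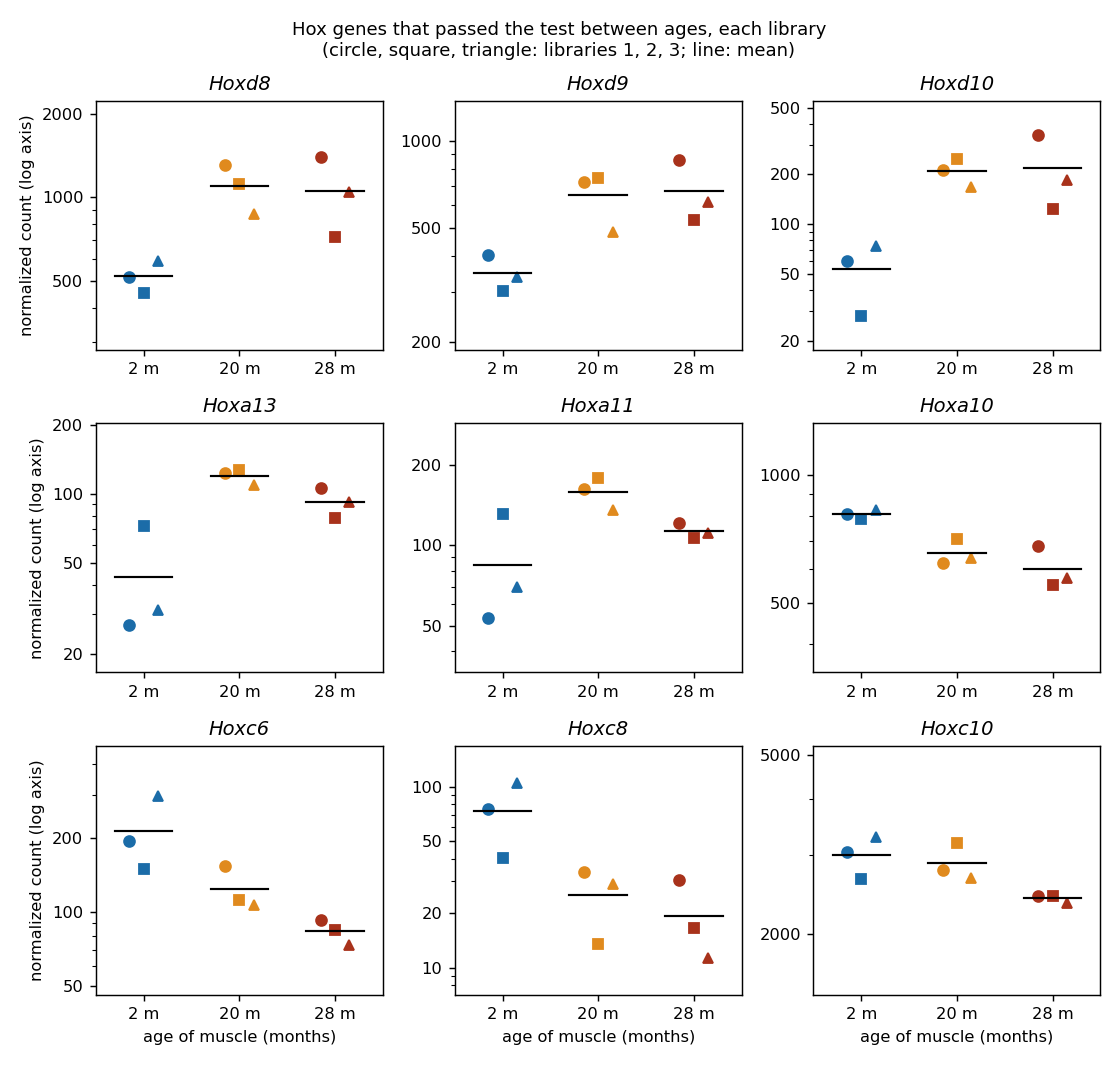
Normalized counts (log axis) of the 9 Hox genes with an adjusted p under 0.05 in any comparison, against age, with circles, squares and triangles for libraries 1, 2 and 3 and a line for the mean. Hoxd8, Hoxd9, Hoxd10 and Hoxa13 are higher in all 6 libraries at 20 and 28 months than in the 3 at 2 months, and Hoxa10 and Hoxc8 are lower.

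The Hoxc genes that were lower include genes known from the thoracic level of the trunk and from the forelimb. Hoxc6 had normalized counts of 193.9, 149.8 and 296.7 among the 2-m libraries, 153.2, 111.4 and 106.8 among the 20-m libraries, and 93.0, 84.2 and 73.6 among the 28-m libraries. The 28-m libraries were all below those at 20 months, and library 1 at 20 months lay within the 2-m range. Against 2-m muscle the log2 fold change was -0.74 ± 0.25 at 20 months (limma adjusted p = 0.0632) and -1.29 ± 0.25 at 28 months (limma adjusted p = 0.00551). At 20 months edgeR and DESeq2 called it lower (adjusted p = 0.0470 and 0.0225).

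Hoxc8 had normalized counts of 75.8, 40.5 and 105.4 among the 2-m libraries, 33.6, 13.5 and 28.9 among the 20-m libraries, and 30.4, 16.6 and 11.3 among the 28-m libraries. No later library reached the lowest 2-m value. On the log2 scale the difference from 2-m muscle was -1.50 ± 0.50 at 20 months (limma adjusted p = 0.0585) and -1.88 ± 0.50 at 28 months (limma adjusted p = 0.0260). The 28-m call was lost without library 1 or 3 at 2 months or without library 2 or 3 at 28 months, with an adjusted p of up to 0.101. At 20 months edgeR and DESeq2 called it lower (adjusted p = 0.0430 and 0.0135).

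Hoxc10, the most abundant member, had normalized counts of 3047, 2649 and 3278 among the 2-m libraries, 2768, 3181 and 2667 among the 20-m libraries, and 2425, 2432 and 2338 among the 28-m libraries. The 20-m libraries lay within the 2-m range and the 28-m libraries lay below all others, close together. Relative to 2-m muscle, the log2 fold change was -0.06 ± 0.09 at 20 months (limma adjusted p = 0.717), -0.31 ± 0.09 at 28 months (limma adjusted p = 0.0445) and -0.26 ± 0.09 between 28 and 20 months (limma adjusted p = 0.349). The 28-m call was kept in 2 of 9 fits with 1 library left out (adjusted p 0.0143 to 0.138). It was kept without library 2 at 2 months and without library 2 at 20 months, and lost without any of the other 7. It was also lost without the filter, after rescaling and with only the libraries compared in the fit. Over all settings its limma adjusted p at 28 months reached 0.672.

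Hoxc9, second in the cluster by level per kb, had normalized counts of 414.6, 285.5 and 342.2 among the 2-m libraries, 321.3, 283.5 and 246.3 among the 20-m libraries, and 335.9, 240.3 and 249.1 among the 28-m libraries, and the ages overlapped. It differed from 2-m muscle by -0.28 ± 0.18 (20 months) and -0.34 ± 0.18 (28 months) on the log2 scale, without passing the test. Hoxc4 had means of 109.5 ± 3.95 (SD, n = 3), 165.4 ± 30.8 and 129.2 ± 44.2 at 2, 20 and 28 months. Its 3 libraries at 20 months were above those at 2 months, though it did not pass the test (limma adjusted p = 0.151).

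The Hoxb genes were low throughout, with 1.58% to 2.61% of the summed Hox level per kb. Hoxb7 had normalized counts of 31.2, 33.5 and 36.8 among the 2-m libraries, 26.2, 45.6 and 26.2 among the 20-m libraries, and 43.6, 33.1 and 71.7 among the 28-m libraries, and no age stood apart. Hoxb2 had 15.6, 24.7 and 10.8 among the 2-m libraries, 7.47, 6.75 and 13.1 among the 20-m libraries, and 26.6, 15.2 and 7.55 among the 28-m libraries. Hoxb5 had 13.4, 8.81 and 11.6 among the 2-m libraries, 11.2, 6.75 and 5.99 among the 20-m libraries, and 11.4, 16.6 and 13.2 among the 28-m libraries, so that its 28-m libraries lay above its 20-m libraries by a small margin. The differences between 28 and 20 months were 0.68 ± 0.62 for Hoxb2 and 0.74 ± 0.59 for Hoxb5 on the log2 scale, neither past the test (limma adjusted p = 0.750 and 0.710).

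Summed by cluster and given per kb of exon, the clusters kept their order of Hoxc over Hoxa over Hoxb, and Hoxd changed its place. The Hoxd sum was 444 ± 56.0 (SD, n = 3) at the youngest age, then 946 ± 186 and 935 ± 301, which took its share of the summed Hox level from 13.8% to 26.5% and 28.9%. The Hoxa sum was 588 ± 67.0, 620 ± 43.4 and 571 ± 34.4, above Hoxd at 2 months and below it at 20 and 28 months. The Hoxc sum was 2107 ± 229, 1940 ± 176 and 1649 ± 72.3, and its share went from 65.6% to 54.5% and 50.9%. These sums are a description of the members and were not tested.

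**Figure D4:**
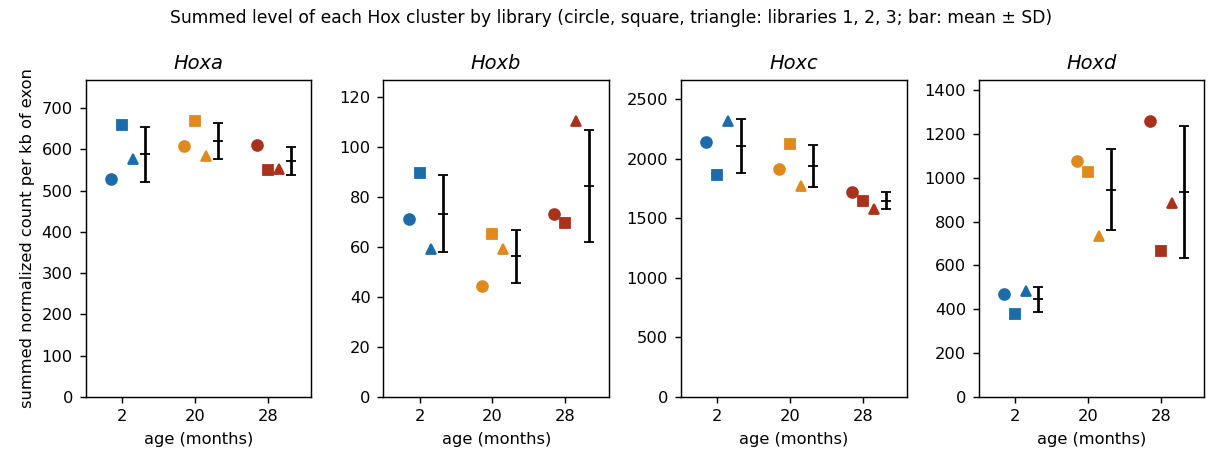
Summed normalized count per kb of exon of each Hox cluster in each library (vertical axes start at 0 and differ between panels) against age in months, with circles, squares and triangles for libraries 1, 2 and 3 and bars for the mean ± SD. The Hoxd sums lie between 380 and 482 at 2 months and between 664 and 1259 at 28 months.

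Markers of fibre types and of other cells differed between ages in the same libraries. Of 10 muscle fibre markers, 2 were higher and 0 lower at both later ages (9.42% and 7.53% of all genes were higher): Myh7, the slow myosin that is abundant in the soleus, and Myh2, the myosin of fast oxidative fibres. Myh7 had normalized counts of 2773, 44701 and 8400 in 2-m muscle, 62731 to 109827 at 20 months and 80566 to 112463 at 28 months. Within 2-m muscle, library 2 was the highest of the 3 for Myh7. Of the 9 Hox genes with a call in any comparison, it was the highest for Hoxa13 and Hoxa11. It was the lowest of the 3 for Hoxd8, Hoxd9, Hoxd10, Hoxa10, Hoxc6, Hoxc8 and Hoxc10. The summed level of the fibre markers ranged from 5607920 to 6385630 at 2 months, 5259500 to 6034950 at 20 months and 5033730 to 5299010 at 28 months.

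Some connective tissue markers were lower at the later ages. For this and the lists that follow, 7.13% of all genes were lower at 20 months and 6.24% at 28 months. Of 10 markers of fibroadipogenic progenitors and fibroblasts, 6 were lower at 20 months and 3 at 28 months, with summed levels of 72629 to 119626, 47168 to 53107 and 49780 to 64368 at 2, 20 and 28 months. Col1a1, which encodes collagen I, had 34207, 11798 and 29946 normalized counts in 2-m muscle and 1711 to 2657 in the later libraries. Of 7 tendon markers, 2 were lower at 20 months and 3 at 28 months, with sums of 13341 to 34694, 14958 to 18524 and 10560 to 14168 that overlapped between 2 months and each later age. Kera, a proteoglycan of tendon, had 1088, 408.8 and 1395 at 2 months and 40.1 to 126.5 later. Of 8 tested satellite cell markers, 1 was lower at 20 months and 3 at 28 months, with sums of 2624 to 3100, 2477 to 2602 and 2026 to 2286. The part of these cells in the Hox results was not tested.

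Tissues other than fibres and connective tissue were followed by their own markers. Bone and cartilage markers summed to 132 to 2193 at 2 months, 35.4 to 52.3 at 20 months and 44.2 to 74.0 at 28 months, with 1 of 7 tested markers, Col2a1, lower at both ages. Markers of marrow and red cells had 1 of 7 lower at both ages, Mpo, with sums of 1740 to 12397, 2309 to 3687 and 3428 to 3895, and while Hba-a1 was at 0 in every library, the beta globin Hbb-bs (row Beta-s) had 1590 to 8151. Adipocyte markers had 4 of 6 lower at 20 months and 1 at 28 months, Schwann cell markers 2 of 6 and 0, smooth muscle and pericyte markers 1 of 6 and 0, and macrophage markers 1 of 6 and 0. Endothelial markers and the 4 tested of 8 T and B cell markers had 0 calls with limma, with 1 and 0 at an unadjusted p under 0.05 at 20 months. Of 7 skin markers, 1 was higher at both later ages, Trp63, with 261 to 295 normalized counts at 2 months, 603 to 717 at 20 months and 826 to 903 at 28 months. It made most of the summed level in every library but library 2 at 28 months, and Krt10 had 44.8 to 88.1 in those 8 libraries. The sum ranged from 325 to 365 at 2 months, 666 to 766 at 20 months and 947 to 5233 at 28 months. Library 2 at 28 months stood apart with the sum of 5233, of which keratin 10 (Krt10) made 1714, beside 977 and 947 in the other 28-m libraries, and its Krt14 and Krt1 had reads where the other 8 libraries had 0. Without that library, 5 Hox genes passed at 20 months (17.6% of all genes) and 6 at 28 months (14.6%), where Hoxc8 and Hoxc10 no longer passed.

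Of the 13 limb identity genes, 9 were tested and 0 passed the limma test in any comparison, with 2 at an unadjusted p under 0.05 at 20 months and 1 at 28 months. Tbx15 and Prrx1, the most abundant, had means of 12506 and 3381 in 2-m muscle and 10841 and 3860 in 28-m muscle. The hindlimb genes Tbx4 and Pitx1 had reads in all 9 libraries, with Tbx4 between 26.7 and 105.7 and Pitx1 between 5.06 and 35.2. Tbx5, the defining gene of the forelimb, was below the level for testing and was picked out after its values were seen. It had 26.7, 3.52 and 44.8 normalized counts in 2-m muscle and 0 to 2.76 in the 6 later libraries. Libraries 1 and 3 at 2 months, which held most of the Tbx5 level, were also those with the most Hoxc6 and Hoxc8. The sources used here do not say which hindlimb muscles entered each library, so the muscles sampled may differ between libraries, and the part of this and of limb position in the Hox results was not tested.

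**Figure D5:**
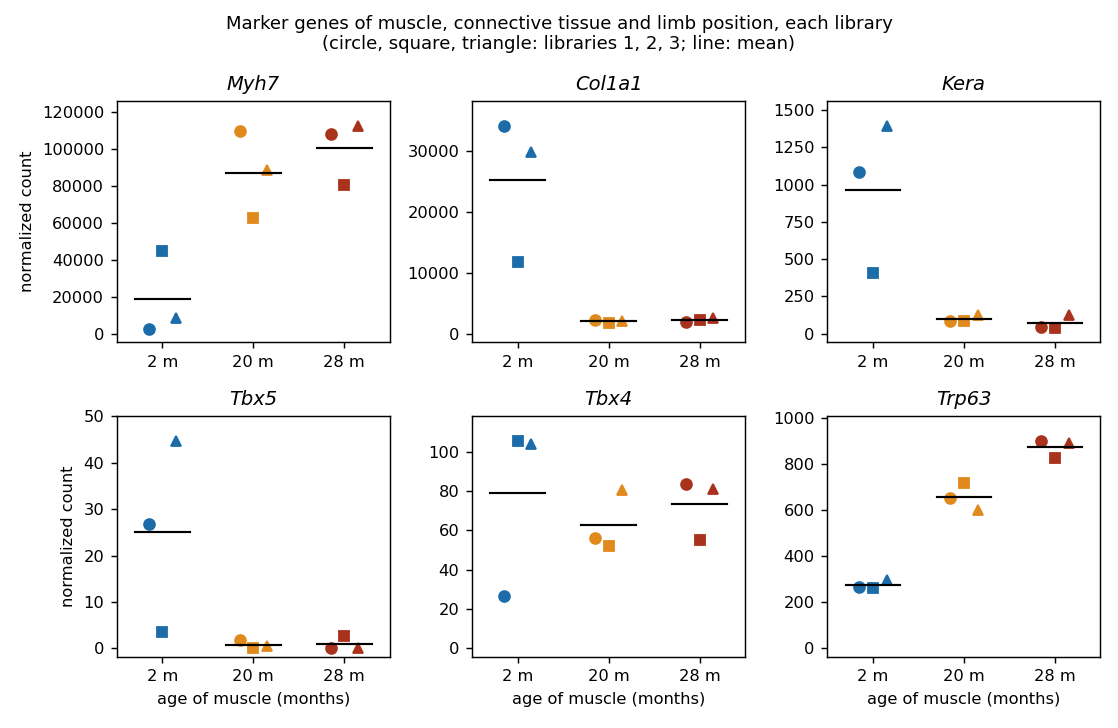
Normalized counts of 6 genes against age in the same 9 libraries, with circles, squares and triangles for libraries 1, 2 and 3 and a line for the mean. Myh7 is lowest, and Col1a1, Kera and Tbx5 are highest, in libraries 1 and 3 at 2 months; Tbx4 overlaps between ages, and Trp63 is higher in every later library.

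Of the DNA-binding partners of Hox proteins, 8 of 9 TALE genes were tested. At 20 months 1 was higher and 1 lower, where 16.6% of all genes were called, and at 28 months 0 were higher and 2 lower, where 13.8% were called. Pknox1 had a log2 fold change of 0.53 ± 0.15 at 20 months (limma adjusted p = 0.0288), and Pknox2 of -0.28 ± 0.09 (limma adjusted p = 0.0465). Pbx3 and Pbx2 were lower at 28 months, with log2 fold changes of -0.79 ± 0.21 and -0.45 ± 0.13 (limma adjusted p = 0.0256 and 0.0320). The summed level of the list stayed between 4737 and 5338 in all 9 libraries.

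The Polycomb group, which keeps Hox genes silent, had 31 tested genes, of which 2 were higher and 2 lower at 20 months (16.6% of all genes called) and 3 were higher and 4 lower at 28 months (13.8%). Cbx6 was lower at both ages (-0.86 ± 0.11 and -0.65 ± 0.11), as was Jarid2, a subunit of the complex that methylates H3K27 (-0.39 ± 0.11 and -0.51 ± 0.11). Phc3 was higher at 20 months (0.52 ± 0.12), and Epop was lower at 28 months (-1.35 ± 0.31). The median log2 fold change of the list was 0.07 at 20 months and 0.05 at 28 months.

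The opposing trithorax genes and H3K27 demethylases had 14 tested genes, of which 5 were higher and 0 lower at 20 months (9.42% and 7.13% of all genes) and 2 were higher and 0 lower at 28 months (7.53% and 6.24%). Kmt2a, the methyltransferase known to maintain Hox transcription, rose by 0.67 ± 0.17 at 20 months and 0.56 ± 0.17 at 28 months (limma adjusted p = 0.0179 and 0.0448). Ash1l rose by 0.45 ± 0.12 and 0.38 ± 0.12, and Kmt2c and Kdm6a by 0.49 ± 0.15 and 0.41 ± 0.09 at 20 months.

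Among 18 genes known to act upstream of Hox genes, 11 were tested, and 1 was higher and 2 lower at each later age, where 16.6% of all genes were called at 20 months and 13.8% at 28 months. Aldh1a1, which makes retinoic acid, rose by 0.63 ± 0.12 at 20 months (limma adjusted p = 0.00441), and Aldh1a2, another such enzyme, by 1.84 ± 0.45 at 28 months (limma adjusted p = 0.0179). The retinoic acid receptor Rarg was lower at 20 months (-0.54 ± 0.10), and Rara was lower at both ages (-0.36 ± 0.11 and -0.45 ± 0.11). Cdx1, Cdx2 and Cdx4 had no read. Of the other transcripts of the clusters, 11 were in the table and 2 were tested, Hotair and Hoxa11os, with 0 calls by limma and 1 unadjusted p under 0.05 at 28 months. The microRNA genes Mir10a, Mir10b, Mir196a-1, Mir196a-2 and Mir615 had no read.

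MBD-seq gave 1 deposited value per age and 500-bp bin, so that no test was possible. At the bins holding the start sites of the 39 genes, the mean normalized count in muscle was 8.09, 10.5 and 7.26 at 2, 20 and 28 months, and that in T cells of the spleen 12.2, 23.7 and 35.3. With the columns rescaled to the same sum, these means were 11.2, 15.7 and 13.6 in muscle, which put 28 months above 2 months, and 10.4, 16.5 and 24.1 in T cells. Before rescaling, the median over the same 39 bins was 1.82, 2.53 and 5.10 in muscle and 5.08, 20.7 and 26.4 in T cells. The median over all bins was 7.28, 8.42 and 13.4 in muscle and 6.09, 4.87 and 3.97 in T cells. The bins at the edge of the sequences printed above held little in muscle at any age, with 0, 0 and 0 at Hoxa13, 1.82, 0 and 1.27 at Hoxd8, 0, 0 and 3.19 at Hoxd9, and 1.82, 3.37 and 3.19 at Hoxd10.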

How the data were processed

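RNA-seq reads of 9 hindlimb muscle libraries were trimmed by the authors with Trim Galore, aligned to mm10 (Hisat2 in the methods, TopHat in the submitters' processing notes) and counted per refSeq gene with htseq-count. The deposited values are a signal, reads per gene divided by the DESeq2 size factor of each library; MBD-seq signal is the same per 500-bp bin, with 3 mice pooled per age. The submitters' processing notes listed tools without versions. The muscle MBD-seq columns do not name which capture round they hold.

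Every deposited signal value was a whole multiple of 1 read (100% within 0.001), so whole reads were recovered for edgeR 4.0.16 and DESeq2 1.42.0. The 5 summary rows (37.9% to 47.7% of reads per library) were left out. Genes with a mean of at least 10 (13178) were tested on log2(value + 1) with limma 3.58.1 (trend) in R 4.3.3, with age as the only term, and p-values were adjusted by Benjamini-Hochberg. Where nothing else is said, log2 fold changes are on this scale, which understates the change of low genes. Positions and exon lengths are from RefSeq for GRCm38, the same sequence as mm10. Libraries are numbered as in the labels, and the numbers did not mark shared animals.

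On simulated counts for 20 against 2 months (13105 genes), limma recovered 49.0% of 98 genes changed 2-fold and 97.9% of 96 changed 4-fold. The simulation gave every gene the same spread beyond counting error and changed far fewer genes than were called in the data. These rates therefore need not hold for the Hox genes. The depth ranged from 20203833 to 71115244 reads on genes, and 1 read was worth 0.545 to 2.23 normalized counts. The Hox genes, the lists of partners, Polycomb, trithorax, upstream and limb genes and the markers were chosen with earlier results of these data known. Values in every library are given for members with a call, for the 2 highest per kb in each cluster and for the 3 largest differences in 20 against 2 and 28 against 20 months. From a list, up to 4 called genes with the largest differences are named, or the 2 most abundant where none was called. The values of 1 member are not reported here by name, though it is part of the counts and sums.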

Additional observations from a re-analysis of the deposited data

How the results depend on the processing

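Across 21 other settings, 24 fold changes were recomputed. They were the 21 that passed the test and the 3 largest between 28 and 20 months. Of the 491 values, 0 had the opposite sign. Some settings could not move a fold change, since a filter, a replicate block or leaving out a library of another age keeps the difference of means. The 21 were also chosen because they passed in these same libraries. Hoxd8 and Hoxd10 passed the test at both later ages in every setting, and Hoxd9 did so at 28 months. With only libraries 1 and 2 of each age, 3 Hox genes passed in each comparison with 2 months (Hoxd8, Hoxd9 and Hoxd10), in place of 5 at 20 months, 8 at 28 months and 8 for the mean of both later ages. With every library rescaled to the same sum, 4 passed at 20 months (4.44% of all genes in place of 16.6%). In that setting 5 passed at 28 months (4.2% in place of 13.8%) and 6 for the mean of both (6.03% in place of 20.1%). Leaving out each library in turn gave 3 to 7 Hox genes at 20 months (8.19% to 17.6% of all genes). At 28 months it gave 4 to 9 (7.29% to 14.6%), and for the mean of both 5 to 9 (12.8% to 22.2%). Between 28 and 20 months it gave 0 each time, where 0.106% to 0.676% of all genes passed. The lowest counts came without library 1 or 2 at 20 months (3), without library 1 or 3 at 2 months or 3 at 28 months (4), and without library 1 or 3 at 2 months for the mean of both (5). The count between 28 and 20 months was 0 in every setting, where 0.0836% to 1.73% of all genes passed. With the number of the library as a replicate block, 6 Hox genes passed at 20 months (22.8% of all genes; the added gene, Hoxc8, was lower), 8 at 28 months (19.2%) and 8 for the mean of both (25.6%). The numbers do not mark shared animals, and the deviations of same-numbered libraries correlated between -0.0401 and 0.161. The highest of these were the pairs of libraries numbered 3 (0.109, 0.150 and 0.161). With a term for the libraries numbered 3, 5 Hox genes passed at 20 months (21.6% of all genes). With that term 8 passed at 28 months (18.4%) and 8 for the mean of both (24.7%). The cause of these changes was not tested, and the fits that leave out libraries also rest on fewer libraries. The median MBD-seq signal over the 39 start-site bins was 1.82, 2.53 and 5.10 in muscle and 5.08 in T cells at 2 months, and rescaling gave muscle means of 11.2, 15.7 and 13.6, which put 28 months above 2 months where it had been below. Members with a mean under 10 normalized counts were left out by the filter, and without it 36 Hox genes were tested and none of the added ones passed.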
